A study of Mus musculus with 6 samples.

Results

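The Snail and ZEB families are zinc finger repressors of the mouse: Snai1, Snai2, Snai3, Zeb1 and Zeb2. These are 5 of the 19057 named genes on the array, and every probe annotated to them was taken, 11 of 45281. Of the 11 probes 3 passed the filter on dim probes, against 14651 of all. Snai3 was chosen by its higher normalized signal in knockout than in control mice, the same comparison as below, and the other 4 genes were added by family. The Snai3 difference is therefore given as a description, with no test.

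RNA was measured on Illumina bead arrays in lymphocytes freed by mechanical means from mouse thymus, at an age of 8 to 12 weeks and on the strain C57/bl6-129sv. The KAP1 KO mice carried CD4-Cre and Kap1flox, and the littermate controls were wt/Kap1flox, with 3 arrays per group. By these names both groups carried the floxed allele, in a number of copies not given in the sources used here. Each array was taken as 1 mouse, from the replicate numbers in the sample titles. The protein KAP1, product of the gene Trim28, silences chromatin where KRAB zinc finger proteins recruit it, and CD4-Cre removes it only in cells that have switched on the CD4 gene. No sort is named, so other thymic cells can be in the preparations. Trim28 had normalized log2 signals of 10.83, 11.01 and 10.23 in knockout replicates 1, 2 and 3, and of 12.39, 12.25 and 12.59 in control replicates 4, 5 and 6. Of 11 thymocyte marker genes on the array 10 were detected on all 6 arrays, among them Cd3e, Cd4 and Cd8b1, and Cd8a was detected on 0 arrays.

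Snail proteins bind the E-box CACCTG through zinc fingers near their C-terminus. Their N-terminal SNAG domain brings in the histone demethylase LSD1 and its CoREST partner. ZEB proteins bind the same E-box through zinc finger clusters at both ends of the protein and bring in the corepressor CtBP. In epithelia and embryos both families are known for silencing E-cadherin when cells become mesenchymal. In lymphocytes they meet the E proteins at shared E-boxes, and mice with a truncated ZEB1 have a small thymus with few T cells.

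The element that both families recognise also stands before the gene of one of them, and it is shown here because Snai1 is the only family member whose tabulated promoter held it. The stretch is from RefSeq on GRCm38.p6, chr2:167537945-167538244 on the plus strand, from 250 bases before the annotated start to 50 bases after it. Capitals mark the match to CACCTG, whose first base lies at -126 from the start.

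Snai1: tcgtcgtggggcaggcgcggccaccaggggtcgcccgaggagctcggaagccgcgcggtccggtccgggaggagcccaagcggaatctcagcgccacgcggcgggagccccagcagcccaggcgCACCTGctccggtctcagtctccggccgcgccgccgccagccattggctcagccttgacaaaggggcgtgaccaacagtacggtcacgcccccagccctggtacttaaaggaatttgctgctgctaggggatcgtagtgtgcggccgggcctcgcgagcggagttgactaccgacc

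The search covered CACCTG on both strands, which is CAGGTG when read on the other strand. Of 32851 mouse promoter stretches of this length 20.2% held a match, and 0 of the 4 tabulated for Zeb2 did. A match describes the letters only. Table entries matched 2 of the 5 genes, and Snai2, Snai3 and Zeb1 had none.

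Snai3 was bright on all 6 arrays and higher in the knockout on each of the 3. Snai3 was first described in mouse as Smuc, a Snail protein of skeletal muscle and thymus. Its only probe, ILMN_1239726, had normalized log2 signals of 10.73, 10.96 and 11.21 in knockout replicates 1, 2 and 3. In control replicates 4, 5 and 6 it had 9.76, 9.61 and 9.78. The groups did not overlap, and the lowest knockout array lay 0.95 above the highest control array on the log2 scale. Among all tested probes 4.48% were higher in the knockout without overlap, and since this contrast chose Snai3 nothing is read from that.

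The knockout mean of Snai3 was 10.97 ± 0.24 and the control mean 9.72 ± 0.09 (SD, n = 3 each), or 2.38-fold higher. The 3 knockout arrays spread more widely than the 3 control arrays. The log2 difference of 1.25 ranked 38th from the top of 14651 probes, and 0.683% of them were at least 2-fold higher in the knockout. Leaving out each array in turn, it ran from 1.13 without knockout replicate 3 to 1.37 without knockout replicate 1. Within the 3 pairs of arrays with neighbouring header numbers it was 0.97, 1.35 and 1.43. In the authors' processed values, on a linear scale, Snai3 stood at 1681, 1978 and 2351 in the knockout and at 849, 766 and 865 in the controls, which gives the same order of groups.

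**Figure D1:**
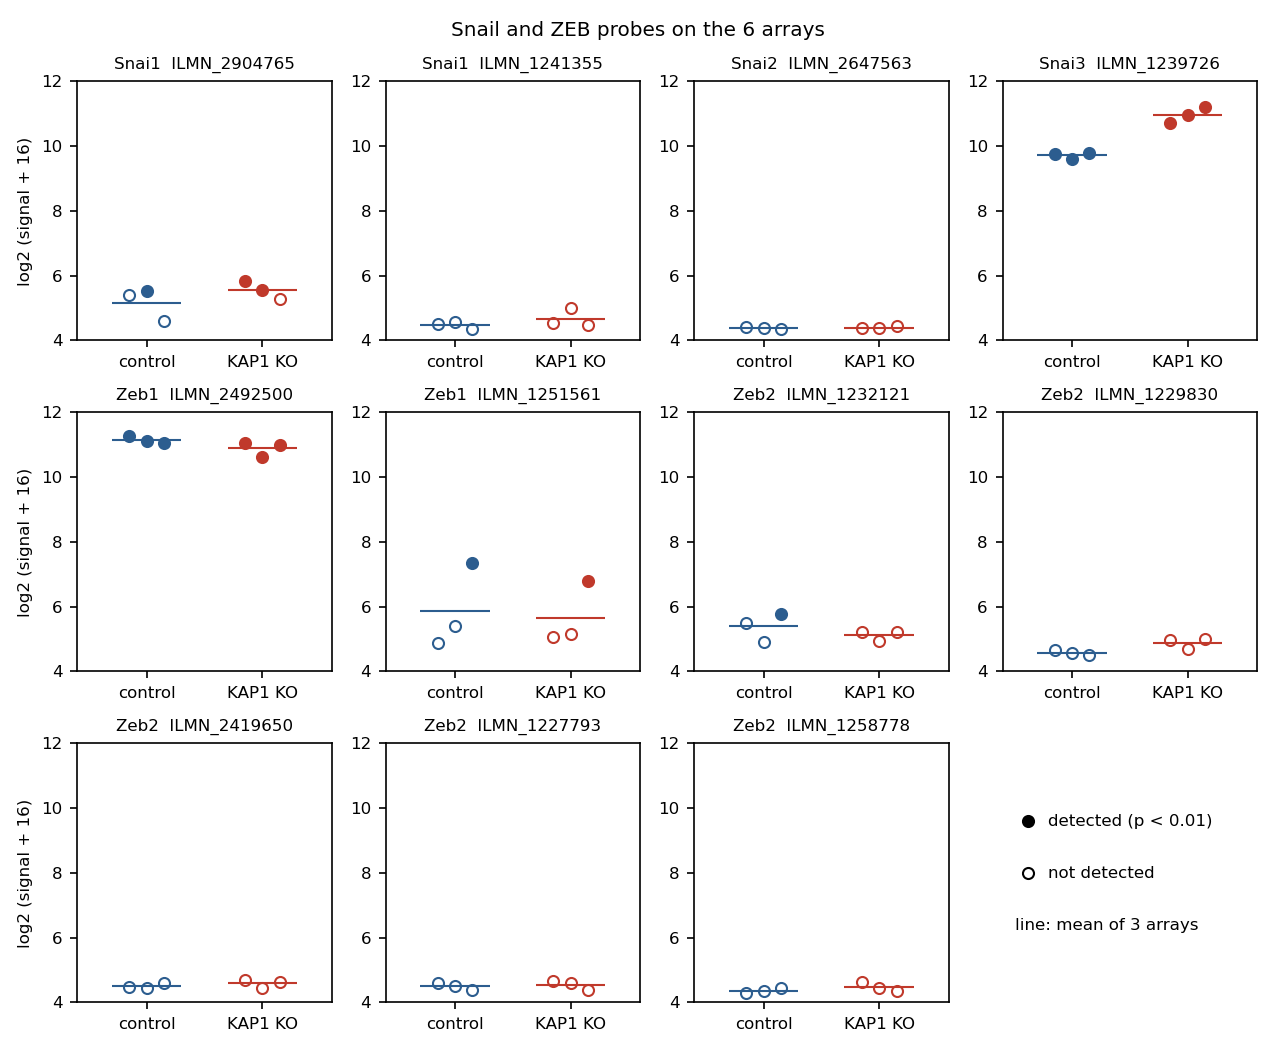
Normalized log2 signal (corrected signal plus 16) of the 11 probes of Snai1, Snai2, Snai3, Zeb1 and Zeb2 in 3 control and 3 KAP1 KO arrays. Each point is 1 array, filled where the probe was detected, and lines are group means. Snai3 and 1 Zeb1 probe are detected on all 6 arrays.

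Zeb1 was the only other family gene with a probe detected on all 6 arrays. In T cells ZEB1 is known to repress Il2. Probe ILMN_2492500 had log2 signals of 11.06, 10.64 and 11.01 in knockout replicates 1, 2 and 3 and of 11.26, 11.11 and 11.07 in control replicates 4, 5 and 6. The groups were separated by less than 0.01, with knockout replicate 1 just under control replicate 6, and 3.16% of all tested probes were lower in the knockout without overlap. The knockout mean was 10.90 ± 0.23 and the control mean 11.15 ± 0.10 (SD, n = 3 each).

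This Zeb1 difference of -0.24 (SE 0.21, 95% interval -0.73 to 0.24) did not pass the threshold over all tested probes (limma adjusted p = 0.998), where 0.0273% of probes did. Without knockout replicate 2, its lowest array, the difference was -0.11. Within the 3 pairs it was -0.20, -0.47 and -0.06.

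The second Zeb1 probe gave a different picture. ILMN_1251561 was designed on the cDNA clone AK014114 rather than on the reference transcript. Its log2 signal was 6.78 in knockout replicate 3 and 7.37 in control replicate 6, the only 2 arrays on which it was detected. On the other 4 arrays it lay between 4.86 and 5.42.

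The clone probe was thus bright on 1 array of each genotype. In the header row of the signal table the identifying numbers of knockout replicate 3 and control replicate 6 stand apart from those of the other 4 arrays, and their meaning was not given in the sources used here. In all 176 probes were detected on exactly these 2 arrays, 18.8% of the 934 probes detected on exactly 2, and no other combination of 2 arrays had more than 113. Whether the probe reads a Zeb1 transcript was not tested.

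Snai1 was close to background. It encodes the Snail protein needed for mesoderm to leave the epithelium of the mouse embryo. Probe ILMN_2904765 had log2 signals of 5.83, 5.56 and 5.29 in knockout replicates 1, 2 and 3, detected in the first 2 of these. In control replicates 4, 5 and 6 it had 5.40, 5.52 and 4.59, detected in replicate 5 alone. The groups overlapped, and control replicate 6 was the lowest array.

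Its knockout mean was 5.56 ± 0.27 and its control mean 5.17 ± 0.51 (SD, n = 3 each). The log2 difference of 0.39 (SE 0.30, 95% interval -0.28 to 1.06) did not pass (limma adjusted p = 0.998). It was 0.10 without control replicate 6 and 0.57 without control replicate 5, and 0.43, 0.04 and 0.70 within the 3 pairs. A signal this near background understates any change, because 16 is added before the log. The other Snai1 probe, ILMN_1241355, was detected on 0 arrays and lay between 4.34 and 4.99.

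Snai2 and Zeb2 were at or near background in both groups. Snai2, or Slug, guards blood stem and progenitor cells of the mouse from cell death, and its probe ILMN_2647563 was detected on 0 arrays and stayed between 4.36 and 4.43. Zeb2, which drives terminal differentiation of effector T cells and natural killer cells in mouse, had 5 probes. Of these 4 were detected on 0 arrays, with log2 signals between 4.28 and 5.01. For 1 of the 4, ILMN_1229830, the groups did not overlap, with 4.69 to 5.01 in the knockout and 4.49 to 4.65 in the controls, all of them below detection.

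The remaining Zeb2 probe, ILMN_1232121, was detected on control replicate 6 alone, at 5.78. Its other control arrays had 5.50 and 4.92, and the knockout arrays had 5.23, 4.93 and 5.23. The groups overlapped. Of all probes on the array 61.2% were detected on no array, so a probe at background is common here and sets no lower limit on the transcript.

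Genes beside Snai3 on chromosome 8 had log2 differences between -0.39 and 0.17 in the same comparison. Among the 5 genes on each side in the order of GRCm38.p6, 5 had a tested probe. Cyba, a subunit gene of the phagocyte NADPH oxidase, differed by 0.16 ± 0.22 and Mvd, a gene of sterol synthesis, by 0.10 ± 0.31 on the log2 scale (SE). On the other side the ubiquitin ligase gene Rnf166 differed by -0.07 ± 0.21, the tRNA thiolation gene Ctu2 by 0.17 ± 0.26 (0.14 by its other tested probe) and the mechanosensitive channel gene Piezo1 by -0.39 ± 0.24. None of these 5 passed (limma adjusted p = 0.998 for each), and their groups overlapped.

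**Figure D2:**
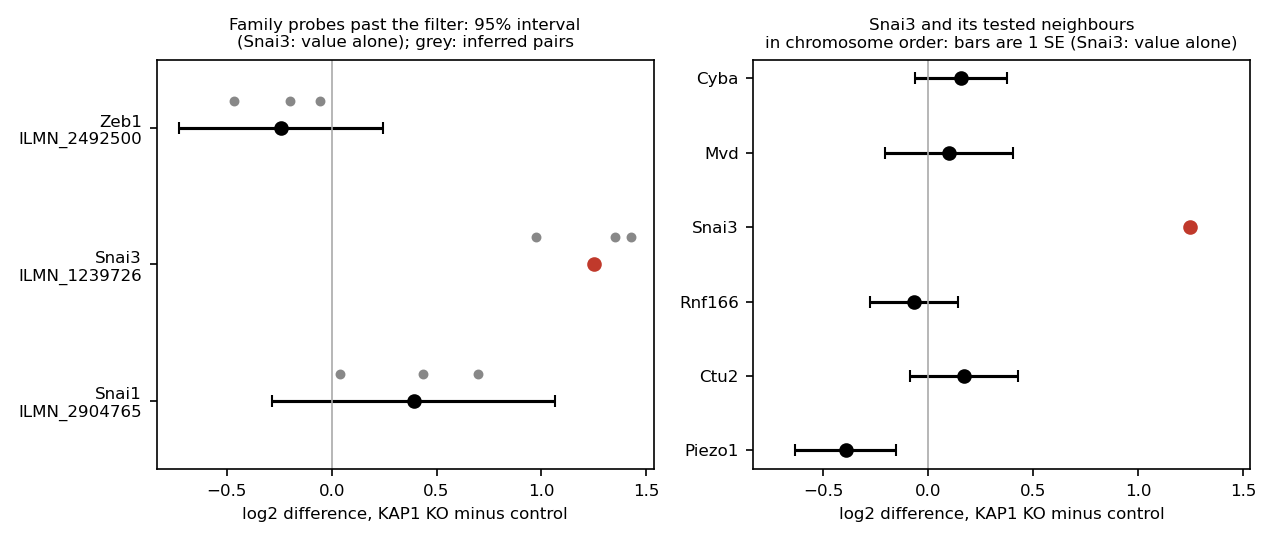
Left, log2 difference between KAP1 KO and control for the 3 family probes past the filter, with 95% intervals for Zeb1 and Snai1, the value alone for Snai3, and grey points for 3 inferred pairs of arrays. Right, Snai3 (value alone) and its 5 tested neighbours (bars of 1 SE) in chromosome order. Snai3 stands at 1.25, and its neighbours lie between -0.39 and 0.17.

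No partner, cofactor or target gene of the family passed the threshold. Trim28, the gene of KAP1, did not pass it either, at -1.72 ± 0.26 (SE, limma adjusted p = 0.230). A gene that did not pass is therefore not shown to be unchanged. Of 115 genes in 8 lists of partners, signals and targets, 68 were tested, with differences from -0.90 to 0.57 by 1 probe a gene, and 0 passed in either direction (limma, adjusted over all tested probes). At an unadjusted p under 0.05 there were 0 higher and 3 lower of the 68, or 4.41% lower, where 3.54% of all tested probes had such a p, 2.25% higher and 1.29% lower. The groups did not overlap for 6 of the 68, or 8.82%, against 7.64% of all tested probes, which is near the background. The median difference was -0.06, and it was -0.01 over all 8200 tested named genes.

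Of 11 tested SNAG domain partners and Snail corepressors 11 were lower, none of them past the threshold, with differences from -0.77 to -0.0047 and a median of -0.11, and 52.1% of all tested named genes were lower. Rcor2, which encodes a CoREST protein that works with LSD1, had the smallest p of the list at -0.77 ± 0.31 (SE, limma adjusted p = 0.998). Its knockout mean was 5.86 and its control mean 6.63, and its groups did not overlap, nor did those of 7.64% of all tested probes. Sin3a, a histone deacetylase scaffold, stood at -0.24 ± 0.23, Prmt5, an arginine methyltransferase, at -0.23 ± 0.27 and Suz12, a Polycomb subunit, at -0.19 ± 0.23. The other tested Prmt5 probes stood at -0.14 and -0.02. The count is by the brightest tested probe of each gene. Hdac2 stood at -0.0047 by that probe and at -0.77 ± 0.32 (SE) by its second, and the second Ehmt2 probe stood at 0.0051. Second probes of Ezh2, Rcor1 and Sin3b stood at -0.29, -0.34 and -0.20.

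ZEB cofactors were lower for 12 of 13 tested genes, with a median of -0.14 and none past the threshold. The deacetylase gene Sirt1 stood at -0.34 ± 0.26, Rbbp4, a histone chaperone gene, at -0.30 ± 0.26 and the NuRD subunit genes Mta1 and Mbd3 at -0.25 ± 0.20 and -0.20 ± 0.23 (SE). The other tested Rbbp4 probes stood at -0.42 and -0.37. Both of these lists rested on knockout replicate 2. Without it the median was -0.03 with 6 of 11 lower for the Snail corepressors, and 0.01 with 6 of 13 lower for the ZEB cofactors.

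Factors that share the E-box went both ways, with 3 of 6 tested genes higher and a median of 0.06. The E protein genes Tcf3 and Tcf12 stood at -0.27 ± 0.29 and 0.15 ± 0.22, and Id2 and Id3, whose products block E proteins, at 0.57 ± 0.38 and 0.26 ± 0.31 (SE). The second Tcf3 probe, ILMN_2596277, stood at -0.63 ± 0.19 with groups that did not overlap (limma adjusted p = 0.998), the second Tcf12 probe at -0.11 and the second Id2 probe at -0.16, the last 2 opposite in sign to the probes that represent their genes. Of 8 other SNAG and Ovo zinc finger repressors only Gfi1 was tested, at -0.15 ± 0.24.

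Signals that switch on Snail and ZEB genes in other tissues were higher for 6 of 11 tested genes, with a median of 0.06. Tgfbr2, the type II receptor gene for TGF-beta, stood at 0.44 ± 0.21 and Stat3, a cytokine signal transducer gene, at 0.26 ± 0.20. The groups of both did not overlap, nor did those of 7.64% of all tested probes. The other tested Stat3 probes stood at 0.06 and 0.17. Egr1 stood at 0.21 ± 0.24 and Notch1 at -0.19 ± 0.22 (SE). None of them passed (limma adjusted p = 0.998 for each).

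Genes for the turnover and location of Snail proteins were higher for 7 of 13 tested genes, with a median of 0.02. Siah2, an E3 ubiquitin ligase gene, had the smallest p at -0.64 ± 0.22, with a knockout mean of 6.06 and a control mean of 6.70. Ctdspl, a gene of the small phosphatase family whose members can dephosphorylate Snail, stood at -0.90 ± 0.38 with means of 6.42 and 7.33. The F-box gene Fbxl5 stood at 0.30 ± 0.23 and Siah1a at 0.22 ± 0.19 (SE). None passed (limma adjusted p = 0.998 for each). The groups did not overlap for Siah2, Ctdspl and Siah1a, nor for 7.64% of all tested probes.

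Epithelial genes that Snail and ZEB proteins repress in other tissues were mostly dim. They were higher for 6 of 8 tested genes of 20 listed, with a median of 0.18 and 0 past the threshold. Cdh1, the E-cadherin gene, stood at 0.28 ± 0.22, Cldn7, a tight junction gene, at 0.42 ± 0.31, Patj, a polarity scaffold gene, at 0.33 ± 0.23 and Esrp2, an epithelial splicing factor gene, at 0.26 ± 0.41 (SE). The other tested Patj probes stood at 0.32, 0.23 and -0.11. Cdh1 and Cldn7 were each detected on 2 knockout arrays and 1 control array. The median ran from -0.03 to 0.30 when single arrays were left out.

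Lymphocyte genes linked to ZEB1 or ZEB2 were higher for 2 of 5 tested genes, with a median of -0.08. The integrin gene Itga4 stood at 0.17 ± 0.36, Gata3 at -0.19 ± 0.20, Cd4 at -0.29 ± 0.27 and the interleukin 7 receptor gene Il7r at 0.34 ± 0.28 (SE). None passed (limma adjusted p = 0.998 for each).

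**Figure D3:**
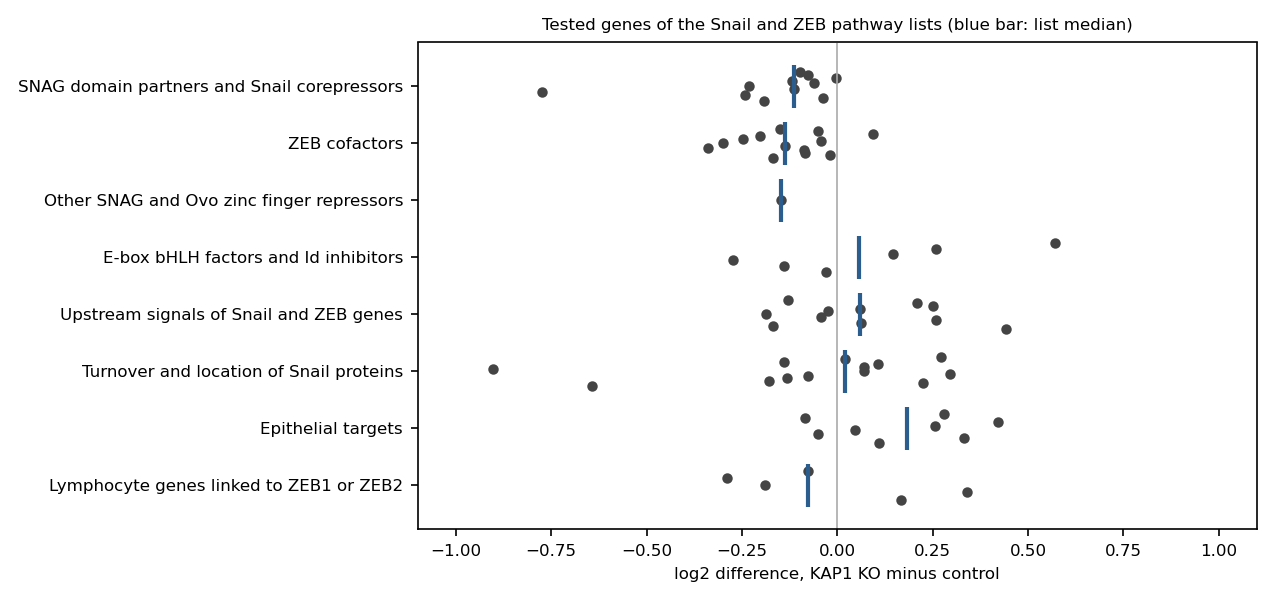
Log2 difference between KAP1 KO and control for the 68 tested genes of 8 lists, 1 point per gene, with the list median as a blue bar. Points lie between -0.90 for Ctdspl and 0.57 for Id2.

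No marker gene of another cell type passed the threshold, with the smallest limma adjusted p at 0.915 for H2-Aa. Of 9 such lists the dendritic and MHC class II sum was the 1 whose groups did not overlap. Among all tested probes 7.64% had groups without overlap, so 1 of 9 sums is given as a description only. In such bulk samples fewer cells of a type and less RNA per cell cannot be told apart. The summed normalized signal of 11 dendritic and MHC class II genes was 6901, 12571 and 7778 in knockout replicates 1, 2 and 3. In control replicates 4, 5 and 6 it was 5051, 3886 and 5247. Each knockout array was above each control array. Of these 11 genes 7 were higher in the knockout, and Itgax, Flt3, Xcr1 and Clec9a were detected on 0 arrays. Of the 6 tested, H2-Aa, H2-Eb1, H2-Ab1 and Cd74 stood at 1.21, 1.11, 1.01 and 0.68, without overlap of the groups. Ciita at -0.06 and Siglech at 0.10 had groups that overlapped.

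The B cell sum of 6 genes ran from 789 to 1307 in the knockout and from 556 to 810 in the controls, with 5 of 6 higher and Ms4a1, Pax5 and Cd22 detected on 0 arrays. For macrophages, with 8 genes, the range was 786 to 1729 against 579 to 1110, with 7 of 8 higher and Adgre1 and Mertk detected on 0 arrays. The innate-like T and NK cell sum of 9 genes ran from 528 to 1583 against 507 to 758, with 6 of 9 higher and Klrb1c, Ncr1, Zbtb16 and Tbx21 detected on 0 arrays. The neutrophil sum was 2587, 3029 and 845 in knockout replicates 1, 2 and 3 and 4204, 2201 and 1631 in control replicates 4, 5 and 6. Only knockout replicate 3 lay below each control array, and 0 of 7 neutrophil genes were higher in the knockout mean. These counts include genes that were not tested. Among tested genes 2 of 2 for B cells, 5 of 5 for macrophages and 4 of 4 for innate-like T and NK cells were higher. Their median differences were 0.72, 0.54 and 0.45. For neutrophils 0 of 6 tested genes were higher, with a median of -0.42, and 52.1% of all tested named genes were lower. The part of these cells in the Snai3 difference was not tested.

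Most marker genes of stromal and red blood cells were detected on 0 arrays, with exceptions. Of 11 mesenchymal genes 8 were detected on 0 arrays, among them Col1a1, Col1a2, Col3a1 and Pdgfra. Of 8 thymic epithelial genes 7 were detected on 0 arrays, among them Foxn1, Epcam and Psmb11. Of 7 endothelial genes 5 were detected on 0 arrays. Pecam1, at 0.29 ± 0.25 (-0.07 by its other tested probe), and Egfl7, at -0.54 ± 0.47 (SE), were detected on all 6. Their log2 means were 9.79 and 6.57 in the knockout and 9.50 and 7.11 in the controls. The endothelial sum ran from 875 to 1260 against 876 to 895. Of 3 erythroid genes Alas2 and Slc4a1 were detected on 0 arrays, and the sum ran from 200 to 995 against 267 to 1177.

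**Figure D4:**
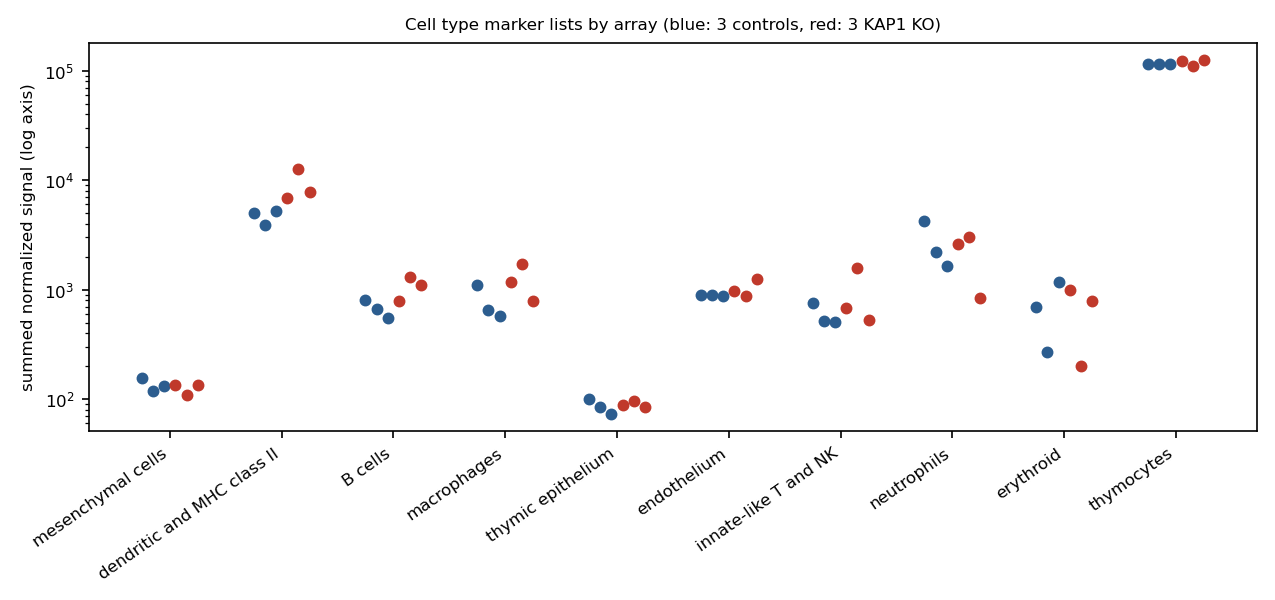
Summed normalized signal of each marker list by array on a log axis, with 3 controls in blue and 3 KAP1 KO arrays in red. The thymocyte sum lies between 109330 and 124650 on all 6 arrays, and the dendritic and MHC class II sum is higher on each knockout array than on each control array.

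The profiles most like that of Snai3 over the 6 arrays were ranked by Pearson's r among 8197 other tested genes, as a description in which genotype itself counts toward the likeness. The highest was Vmn1r65, a vomeronasal receptor gene, at r = 0.985 (Spearman's rho 0.943), whose log2 difference was 2.97 ± 0.22 (SE). Next came Znrd1 at r = 0.973, Rnf135 at r = 0.969, Cyth3 at r = 0.968 and 4930550C14Rik at r = 0.968. Their log2 differences were 0.20, 0.76, 0.88 and 2.16, so a like shape went with differences of very unequal size.

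With each group's mean taken away, other genes lay nearest to Snai3. These were Tgfbr3l at r = 0.997, Stxbp2 at r = 0.995, Smoc1 at r = 0.992, Mettl17 at r = 0.990 and Gimap6 at r = 0.990. Their differences between the groups ran from -0.94 for Smoc1 to 0.21 for Gimap6. Nearest to the bright Zeb1 probe were Tmem260 at r = 0.990, Lnx2 at r = 0.983 and Dnaaf1 at r = 0.979, and nearest to the tested Snai1 probe were Wdr53 at r = 0.993, Egln3 at r = 0.989 and Eapp at r = 0.980. These genes are the top of rankings of 8197 genes over 6 arrays. An r above 0.95 was found for 18 genes with Snai3, and for 38 with group means taken away. It was found for 27 genes with Zeb1 and 31 with Snai1.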

How the data were processed

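Per the file headers, the deposited signal table gives for each probe a linear intensity, not normalized between arrays, and a detection p-value. BeadStudio 3.1.3 is named in the submitters' processing notes. A second deposited table gives processed intensity values, which by their values are background-subtracted and equalized, and served as an alternative. Table columns carry the numbers of the sample titles, and each ranked the probes as that sample's column of the value table did (Spearman 1.0, at most 0.84 for other samples).

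With limma 3.58.1 in R 4.3.3, neqc corrected the background from the detection p-values, made the arrays equal by quantiles and added 16 before log2. Probes detected at p under 0.01 on at least 3 of 6 arrays were tested with lmFit and eBayes, KAP1 KO against control, with Benjamini-Hochberg adjustment across the 14651 tested probes and a threshold of 0.05. All p-values are two-sided. The mean signal per array ran from 340.1 to 678.5, from 13973 to 15182 probes were detected, and 3 arrays per group limit the precision. In all 4 probes passed, all higher. Pairs of arrays were inferred from neighbouring numbers in the header row, and deviations from group means correlated by 0.128, 0.164 and 0.518 within them, and by 0.317 for knockout replicate 2 with control replicate 4, which are not a pair. With these pairs as a block 2 probes passed.

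Probe names came from the array's annotation, updated through GRCm38.p6. A listed gene was represented by its brightest tested probe. Named were every member probe, Trim28, up to 4 genes with the smallest p in each pathway list, the neighbours of Snai3 and the most alike profiles. The members and lists were chosen with earlier results of these data known. The fit was tested on simulated data.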

Additional observations from a re-analysis of the deposited data

How the results depend on the processing

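Under all 16 alternatives the Snai3 difference moved from its main value of 1.25 by less than the pooled SD within groups, 0.18. It ran from 1.13 to 1.37 on the log2 scale and was 1.16 without background correction. The Zeb1 probe ILMN_2492500 stayed lower in the knockout in all 16, from -0.32 to -0.11, and the Snai1 probe ILMN_2904765 stayed higher, from 0.10 to 0.70. Neither passed under any of them (limma adjusted p from 0.903 to 1 and from 0.925 to 1). With inferred pairs as a replicate block they were at 0.970 and 0.925, and the count of pathway genes past the threshold was 0 under each alternative. The count of all probes past the threshold was 4. This count was 2 without background correction, 1 with no filter on dim probes and 2 with inferred pairs as a replicate block. It was from 0 to 1 when single arrays were left out. With an offset of 50 it was 3, with an offset of 1 it was 5, and with the authors' processed values 6. With a trend and robust prior in the fit it was 5, of which 4 were higher in the knockout. Fits with an array left out had fewer arrays, and the one with no filter tested 45281 probes. The cause of these changes in the count was not tested. The dim probes are limited by background, and ILMN_1229830 of Zeb2 moved from 0.32 to 0.73 with an offset of 1.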
